A study of Mus musculus with 3 samples.

Results

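Expression of 34 genes of the p53 response and of the senescence inhibitors was compared between primary mouse embryonic fibroblasts labelled SA1-null and fibroblasts labelled wild type. Members were the listed genes that had a probe whose transcript, as the scanner files name it, is a RefSeq transcript of that gene. All 34 listed genes had such a probe, and all 34 had a probe that passed the filter on dim signals, of 18485 genes or transcripts that could be tested on the array. They had 56 probes, of which 53 passed, of 24015 passing probes among 41174. By role, 3 were p53 itself and its regulators, 9 genes of cell cycle arrest, 13 genes of cell death, and 9 genes of DNA repair, nucleotide supply and redox balance.

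SA1, encoded by Stag1, is a subunit of cohesin, the ring complex that holds sister chromatids together and folds chromosomes into loops. Each of 3 Agilent 2-colour arrays carried RNA of 1 culture labelled wild type in the dye Cy5 and of 1 culture labelled SA1-null in the dye Cy3, and arrays 1 to 3 are biological replicates per the labels. The cells came from embryos of stage E12.5, were grown in DMEM with 10% serum without treatment, and gave 1 µg of total RNA for labelling, per the labels. The labels do not say which segment of the gene was disrupted, the strain, the passage number or how many embryos a culture came from. Dyes were not exchanged on any array, so genotype and dye cannot be told apart here.

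p53 is a transcription factor that is kept scarce by the ubiquitin ligase Mdm2 and held inactive by its relative Mdm4. Damage and other stress free it, and it then switches on genes that stop the cell cycle, start cell death or repair DNA, among them Mdm2 itself. In cultured mouse embryonic fibroblasts this pathway, together with the cell cycle inhibitors of the Cdkn2a and Cdkn2b loci, brings about culture senescence, a lasting arrest that sets in over serial passages.

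The targeted gene went against its label. The brightest of 4 Stag1 probes read 2337, 1761 and 2067 in Cy3 against 231, 131 and 187 in Cy5 after normalization. Stag1 was therefore 11.4-fold higher in Cy3, the channel labelled SA1-null, at a log2 ratio of 3.52 ± 0.21 (SD, n = 3 arrays, limma adjusted p = 0.0273 by Benjamini-Hochberg). The other 3 probes had means of 3.53, 2.17 and 0.59, and the dimmest pair was well above background in Cy5 on 2 and 0 of the 3 arrays. The gene stood at 3.40 without array 2 and 3.54 without array 3, where its limma adjusted p was 0.214 and 0.49. Groups are called below by their labels, and every sign turns if the labels of the channels were exchanged. All ratios are log2 of Cy3 (labelled SA1-null) over Cy5 (labelled wild type), so a value above 0 means more signal in the channel labelled SA1-null.

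Array 1 lay on a slide of its own, and arrays 2 and 3 shared another. The median signal of a channel was 1.84 to 4.02 times its median local background. The ratios of all genes spread more on array 1 (SD 0.84) than on array 2 (0.34) or array 3 (0.54), and array pairs correlated at 0.27 to 0.47 across genes, which are not independent replicates. Of the fibroblast markers, 11 of 12 were measured, with well above background signal in both channels on all arrays. Their mean ratios were above 0 in 10 of 11 (median 0.71), and 0 were called. On arrays 1, 2 and 3 the fibroblast medians were 1.11, 0.06 and 0.78, with 10, 6 and 9 of 11 above 0. Of the macrophage and blood cell markers, 17 of 18 were measured and all 17 were below 0 on all 3 arrays (median -2.86), with 11 called lower in Cy3 by limma. Their summed normalized intensity in Cy3 against Cy5 was 52948 against 568823 on array 1, 8063 against 65839 on array 2 and 7691 against 67009 on array 3. The endothelial list had 2 of 6 markers measured and the epithelial list 4 of 6 (medians -0.16 and -0.43). The part of these cell types in the ratios below was not tested. In bulk RNA, fewer cells of a type and less RNA per cell cannot be told apart.

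Some members carry matches to the binding motif of p53 close to their start, and the stretches below show them in genes whose ratio was below 0 on array 1 and above 0 on array 3, the pattern that the results turn on. The motif is the p53 half-site, whose 10 bases are 3 purines, a C, 2 bases that are A or T, a G and 3 pyrimidines, and which reads the same on both strands. It was searched from 250 bases before to 50 after each start in RefSeq's windows of build GRCm38.p6, which hold 26 of the 34 members. At least 1 half-site lay in the windows of 10 of these 26 genes (11 of their 36 windows, 30.6%), and in 2582 of all 27025 genes (2745 of 32851 windows, 8.36%). Each stretch runs 5′ to 3′ on the strand of its gene, ends before the start, and has the half-site in capitals.
Mdm2, chr10:117710885-117710994, minus strand: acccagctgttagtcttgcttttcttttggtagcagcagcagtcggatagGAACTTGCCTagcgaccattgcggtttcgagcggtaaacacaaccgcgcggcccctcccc
Cdkn1a, chr17:29090856-29090978, plus strand: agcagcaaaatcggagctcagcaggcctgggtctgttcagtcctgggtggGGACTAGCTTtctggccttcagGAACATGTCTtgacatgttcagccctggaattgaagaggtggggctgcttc
Ccng1, chr11:40755412-40755521, minus strand: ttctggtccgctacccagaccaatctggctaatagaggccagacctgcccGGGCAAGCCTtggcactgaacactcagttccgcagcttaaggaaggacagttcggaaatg
Aen, chr7:78895887-78895996, plus strand: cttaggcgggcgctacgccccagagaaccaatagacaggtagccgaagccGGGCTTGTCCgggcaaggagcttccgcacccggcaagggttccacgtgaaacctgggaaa
Ei24, chr9:36797335-36797394, minus strand: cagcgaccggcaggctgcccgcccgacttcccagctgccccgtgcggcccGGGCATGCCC
Polk, chr13:96519359-96519437, minus strand: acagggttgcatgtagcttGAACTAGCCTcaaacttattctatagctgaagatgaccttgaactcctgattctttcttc

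The Cdkn1a stretch holds 2 separate matches to the half-site, which begin 73 and 51 bases before the start and do not adjoin. Mdm2 and Ccng1 have theirs at nearly the same distance, 186 and 185 bases before it. In Aen, Polk and Ei24 the half-site begins 121, 231 and 10 bases before the start. Bax (201 bases before), Sesn1 (173) and Trp53 (75) also held one before the start, and their ratios did not go from below 0 on array 1 to above 0 on array 3. Gtse1, also without this pattern, held one not wholly before its start. Ercc5, Btg2, Cdkn2a, Cdkn2b, Pidd1, Apaf1, Dcxr and Eda2r had the pattern and no half-site in their windows. Mdm4, Phlda3, Tigar, Bbc3, Gdf15, Fdxr, Plk2 and Fas had neither. Ddb2 and Xpc had the pattern but no window to search. Trp53inp1, Zmat3, Pmaip1, Perp, Rrm2b and Tnfrsf10b had no window and lacked the pattern. Cdkn1a has 2 starts in the table, and the stretch shown lies before the upstream one, which is 2790 bases from the other. Polk also has 2 starts, 23392 bases apart, and its stretch lies before the downstream one. Aen has 2 starts 131 bases apart, and its half-site lies before the downstream one and after the other. Sesn1 has 2 starts 76865 bases apart, with its half-site before the downstream one. A match is a description of these letters only. Stretches were picked for display by the ratios of these arrays, so the pattern and the motif are shown together and their relation was not tested. The choice used the brightest probe of each gene, and another probe of Mdm2, Ccng1 and Aen lacks the pattern.

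No member passed the test. The limma test called 0 of the 34 members at an adjusted p of 0.05 (Benjamini-Hochberg over all 18485 genes), where 58 genes or 0.314% were called over the whole array, 2 higher in Cy3 (0.0108%) and 56 higher in Cy5 (0.303%). Without array 1 there were 284 genes called, and 0 without array 2 or without array 3, where 1295 and 737 genes had an unadjusted limma p under 0.05. At an unadjusted p under 0.05 there were 2 members, Pmaip1 and Fas, both lower in Cy3, against 1384 genes or 7.49% overall. The smallest adjusted p of any member was that of Pmaip1 (limma, 0.473). With the slide as a fixed term in the model, which takes its spread from arrays 2 and 3 alone, 2 members were called (Pmaip1 and Sesn1) while the count over all genes went from 58 to 1770. In each of the other alternatives tried, leaving out any 1 array included, 0 members were called.

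The members' mean ratios lay close to those of all genes, with a small lean to the channel labelled wild type. Of 34 members, 10 had a mean ratio above 0 and 24 below it, with a median of -0.12 and a range of -1.17 to 0.83, and of all 18485 genes 8433 were above 0 with a median of -0.02. The lean came from array 1. On arrays 1, 2 and 3 the members' medians were -0.42, 0.07 and 0.12, while the medians of all genes were -0.04, -0.01 and -0.03. Members above 0 numbered 5 on array 1, 22 on array 2 and 18 on array 3. Without array 1 the median of the members was 0.10, with 23 of 34 above 0.

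**Figure D1:**
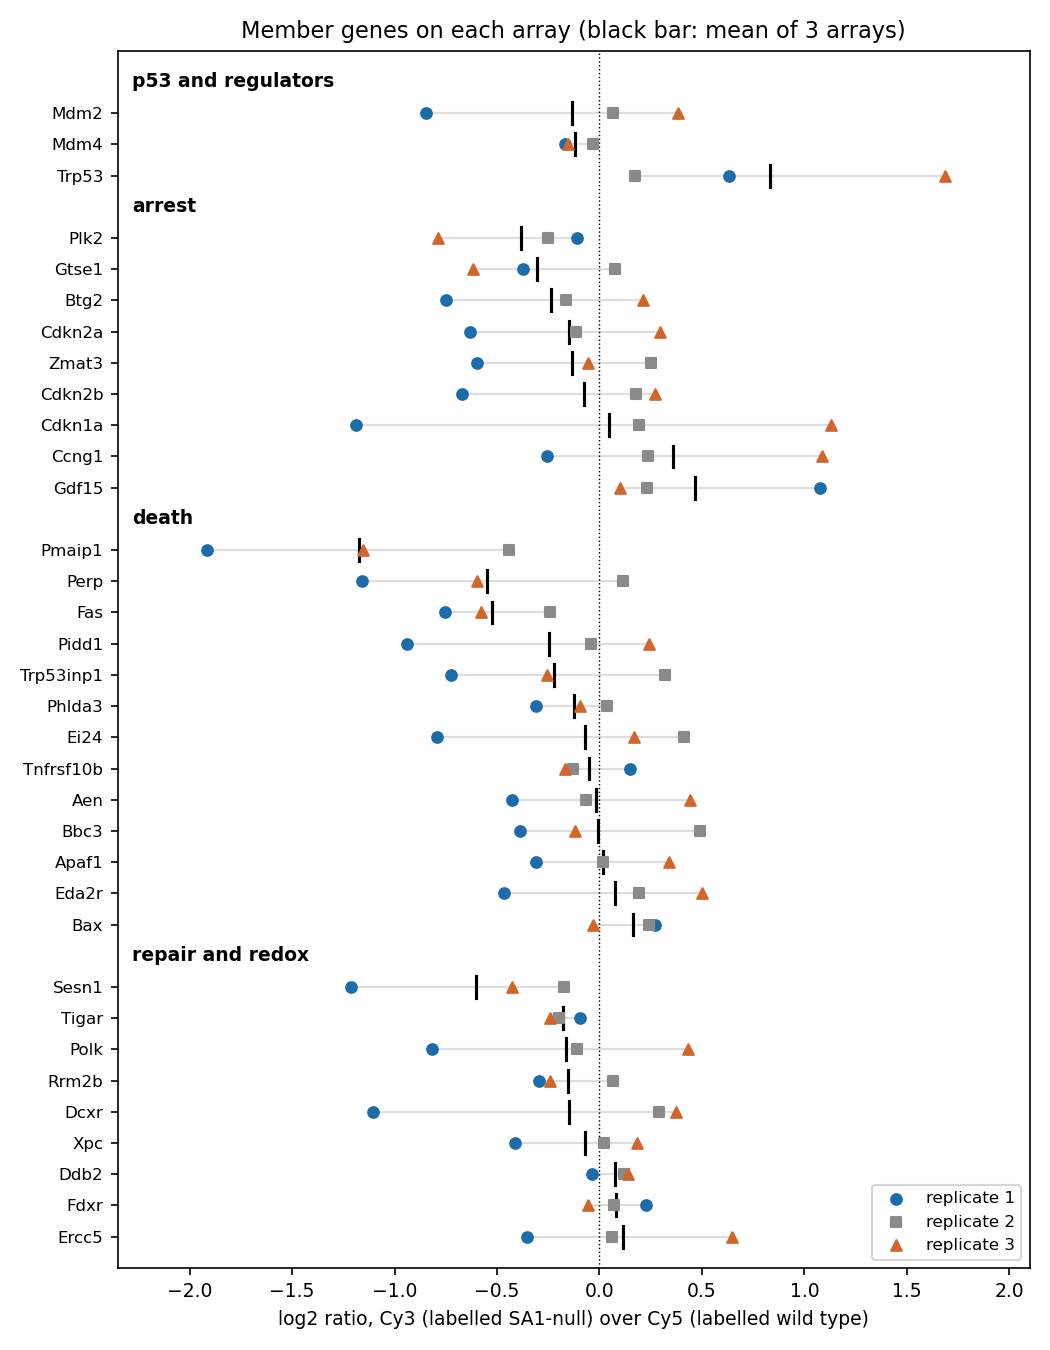
Log2 ratio of Cy3 over Cy5 (horizontal axis) of each of the 34 members on each array, with 1 row per gene, grouped by role and sorted by the mean, which the black bar marks. The circles of array 1 lie left of the other arrays in 26 of 34 rows, and the means run from -1.17 (Pmaip1) to 0.83 (Trp53).

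The arrays disagreed on the sign of most members, as they did for most of all genes. There were 8 of 34 with the same sign on all 3 arrays, against 32.4% of all genes. Trp53 and Gdf15 were above 0 (13.3% of all genes). Another 6 were below 0 (19.1% of all genes), namely Mdm4, Plk2, Pmaip1, Fas, Tigar and Sesn1. A ratio below 0 on array 1 and above 0 on array 3 was seen in 16 of 34 members, against 22.7% of all genes. The opposite, above 0 on array 1 and below 0 on array 3, was seen in 3 members (Bax, Tnfrsf10b and Fdxr), against 22.6% of all genes. Array 1 gave the lowest of the 3 ratios in 26 of 34 members, against 39.7% of all genes. These counts rest on the brightest probe of each gene. Of the 16 members below 0 on array 1 and above 0 on array 3, 8 had another kept probe, and in 5 of these (Aen, Btg2, Ccng1, Mdm2 and Pidd1) such a probe lacked the pattern. Conversely, Sesn1 and Trp53inp1 had it with another probe only. With the mean of the kept probes of each gene the count was again 16 of 34 members, against 23.1% of all genes, and array 1 was lowest in 25 of 34, against 40.0%. The members' SD over the arrays had a median of 0.47, where that of all genes was 0.32. These counts describe 3 arrays, were taken after the values had been seen, and are no test.

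Arrays 1 and 3 were further apart than the error of single spots for many members, as for many of all genes. Feature Extraction, the scanner software, gives ratios of its own, each with an error (median 0.21 log2 units over the members). Gaps in this paragraph come from those ratios and not from loess, except where named. By more than 2 such errors of the difference, array 3 was above array 1 in 16 of 34 members, against 21.0% of all genes, and array 1 above array 3 in 3 members (Gdf15, Plk2 and Tnfrsf10b), against 24.3%. Cdkn1a had the widest gap of the members, at 2.28 ± 0.32 log2 units. Next came Eda2r (1.69 ± 0.33), Dcxr (1.37 ± 0.30) and Ccng1 (1.32 ± 0.31). Eda2r was dim, with a Cy3 signal of 45 against a local background of 21.5 on array 1. Its gap with loess was 0.97, below those of Dcxr (1.48), Ccng1 (1.34) and Mdm2 (1.23). These errors cover the spots of the brightest probes and not the cultures. Arrays 1 and 3 also differed in slide and in the version of Feature Extraction. Culture, slide and software version cannot be told apart here.

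Trp53, which encodes p53, read 2814, 701 and 3287 in Cy3 on arrays 1, 2 and 3 with its brightest probe, against 1816, 622 and 1020 in Cy5. Intensities are scaled within an array only, so they are compared across the channels of an array and not across arrays. The Trp53 ratios were 0.63, 0.17 and 1.69, all above 0 (mean 0.83 ± 0.78 SD, n = 3, limma adjusted p = 0.665). The second kept probe of Trp53 read 1594, 558 and 684 in Cy3 against 1944, 604 and 741 in Cy5. Its ratios were all below 0 (mean -0.17 ± 0.10 SD, n = 3). The probes of Trp53 differed by up to 1.80 log2 units on an array, so no direction can be given for the gene. The transcript segments that the probes read were not analysed here.

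Mdm2, the ubiquitin ligase that p53 both induces and answers to, read 3317, 4640 and 6275 in Cy3 against 5971, 4428 and 4805 in Cy5. Its ratio was -0.85 on array 1, 0.07 on array 2 and 0.38 on array 3, with a mean of -0.13 ± 0.64 (SD, n = 3). The channels changed places between arrays 1 and 3 with this probe, and it stood at 0.23 without array 1. A second kept probe of Mdm2 did not show this, with ratios of -0.48, 0.28 and -0.12. Mdm4, the relative that blocks p53 activity, was even by comparison. It read 270, 173 and 159 in Cy3 against 304, 176 and 177 in Cy5 (mean -0.12 ± 0.08 SD), and a second kept probe had a mean of 0.08.

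**Figure D2:**
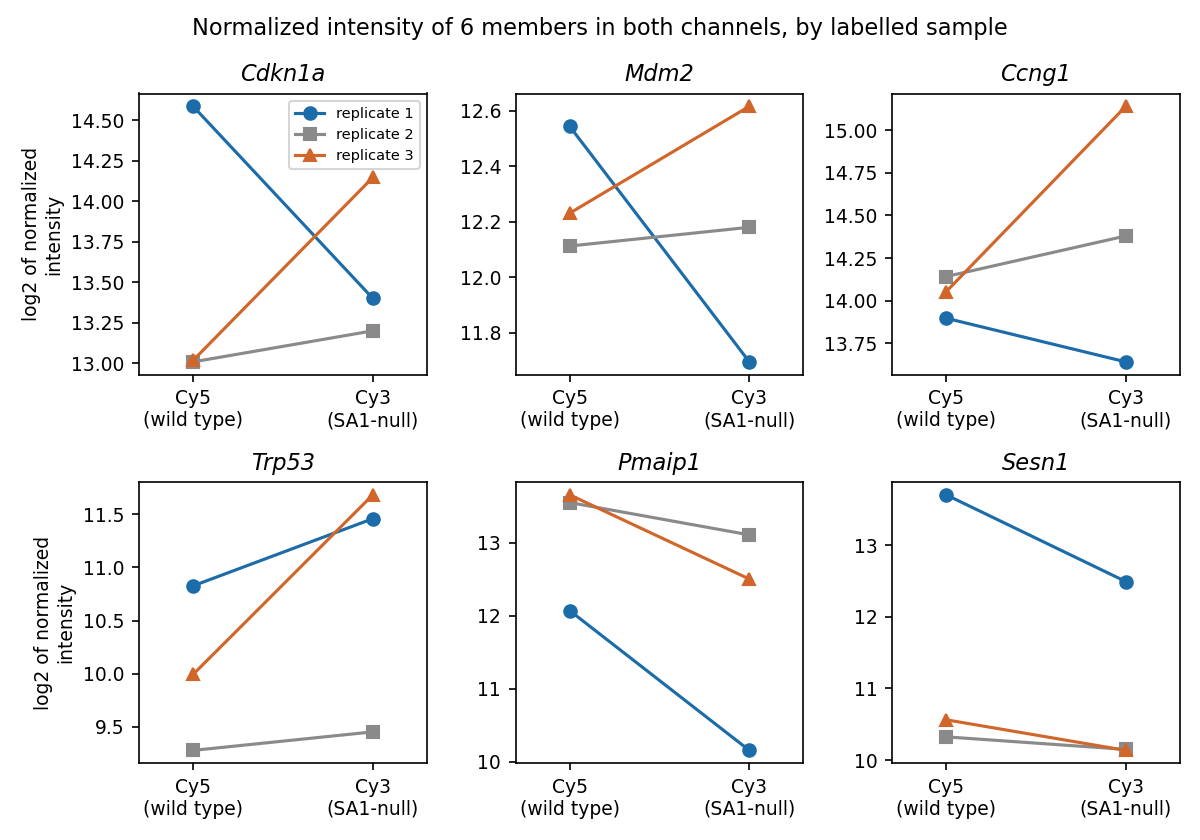
Log2 of the normalized intensity (vertical axis, with a range of its own in each panel) of 6 members in the Cy5 channel labelled wild type and the Cy3 channel labelled SA1-null, with 1 line per array. Each panel shows the brightest probe of its gene. Lines of array 1 fall and lines of array 3 rise for Cdkn1a, Mdm2 and Ccng1. All 3 lines fall for Pmaip1 and Sesn1 and rise for Trp53. Other kept probes of Mdm2, Ccng1, Sesn1 and Trp53 do not share all of these directions.

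Among the 9 arrest genes 3 had a mean ratio above 0 and 6 below it, with a median of -0.13. Their medians were -0.60, 0.18 and 0.21 on arrays 1, 2 and 3, the widest swing of the 4 role groups. Cdkn1a, which encodes the cyclin-dependent kinase inhibitor p21, read 10808, 9409 and 18139 in Cy3 against 24588, 8238 and 8292 in Cy5. It was thus lower in the channel labelled SA1-null on array 1 (-1.19), near even on array 2 (0.19) and higher on array 3 (1.13). Its mean of 0.05 ± 1.16 (SD, n = 3) had a 95% interval of -1.15 to 1.24 from limma, wide enough to hold a difference of over 2-fold in either direction. Of all genes, 96.6% had an SD no larger than that of Cdkn1a.

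Cdkn2a, the locus of the senescence inhibitors p16Ink4a and p19Arf, read 2275, 300 and 277 in Cy3 against 3529, 324 and 226 in Cy5. The ratios were -0.63, -0.11 and 0.30, and the mean was -0.15 ± 0.47 (SD, n = 3). Which of the transcripts of the locus the probe reads was not analysed here. Its neighbour Cdkn2b, which encodes p15Ink4b, behaved alike on the outer arrays, with ratios of -0.67, 0.18 and 0.27.

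Ccng1, the p53-induced cyclin G1, read 12778, 21317 and 36108 in Cy3 against 15260, 18072 and 16989 in Cy5. The ratio was below 0 on array 1 (-0.26) and above 0 on arrays 2 and 3 (0.24 and 1.09). The mean of 0.36 ± 0.68 (SD, n = 3) had a limma adjusted p of 0.757 after Benjamini-Hochberg, and without array 3 the value was -0.01. A second kept probe of Ccng1 was above 0 on all 3 arrays, at 0.05, 0.18 and 0.35. Plk2, a polo-like kinase that p53 induces, was one of the few members with its lowest ratio on array 3. It read 4760, 11394 and 9664 in Cy3 against 5131, 13556 and 16706 in Cy5, with ratios of -0.11, -0.25 and -0.79 that were all below 0.

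Gdf15, a secreted member of the TGF-beta family, read 1611, 745 and 654 in Cy3 against 765, 634 and 611 in Cy5. It was above 0 on all 3 arrays, at 1.07, 0.23 and 0.10, and was the arrest member with the highest mean (0.47 ± 0.53 SD, n = 3, limma adjusted p = 0.703). Array 1, where most members were low in Cy3, held its highest ratio. Gtse1, a microtubule-associated protein that restrains p53, read 727, 609 and 487 in Cy3 against 942, 578 and 748 in Cy5 (mean -0.31 ± 0.35 SD). The antiproliferative gene Btg2 had ratios of -0.75, -0.16 and 0.21, while its 2 other kept probes were below 0 on all 3 arrays (means -0.18 and -0.19). Also measured was the RNA-binding zinc finger gene Zmat3, with ratios of -0.60, 0.25 and -0.05.

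The 13 death genes had 3 mean ratios above 0 and 10 below it, with a median of -0.07 and array medians of -0.47, 0.04 and -0.09. Array 1 was the lowest of the 3 in 11 of them. Pmaip1, which encodes the BH3-only protein Noxa, read 1138, 8813 and 5793 in Cy3 against 4296, 11986 and 12899 in Cy5. Its ratios of -1.92, -0.44 and -1.15 were all below 0, and its mean of -1.17 ± 0.74 (SD, n = 3), or 2.25-fold lower in Cy3, was the lowest of the 34 members. It did not pass (limma adjusted p = 0.473 by Benjamini-Hochberg), and 2.39% of all genes had a mean ratio as low. With the slide as a fixed term the value was -1.36 (limma adjusted p = 0.00796). Over the other alternatives its limma adjusted p was 0.228 to 1.00, and its value ran from -1.67 with median centring to -0.80 on arrays 2 and 3 alone.

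Fas, the death receptor, read 2938, 845 and 601 in Cy3 against 4958, 998 and 897 in Cy5. Its ratios of -0.75, -0.24 and -0.58 were all below 0 (mean -0.52 ± 0.26 SD, n = 3, limma adjusted p = 0.61). Perp, a membrane protein of cell junctions that p53 induces in cell death, read 1755, 1081 and 750 in Cy3 against 3922, 998 and 1136 in Cy5. It was below 0 on arrays 1 and 3 (-1.16 and -0.60) and above 0 on array 2 (0.12). Bax, the protein that opens the outer mitochondrial membrane, read 11852, 12198 and 10702 in Cy3 against 9827, 10304 and 10922 in Cy5. Its ratios stayed within 0.27 of 0 on every array (mean 0.16 ± 0.17 SD), the highest mean of the death genes.

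The other death members fell into a few patterns. Bbc3, which encodes the BH3-only protein Puma, had ratios of -0.39, 0.49 and -0.12, and Trp53inp1, a p53-inducible nuclear protein, ratios of -0.73, 0.32 and -0.25. Ei24, a protein of the endoplasmic reticulum, had ratios of -0.79, 0.41 and 0.17. The gene of the caspase-activating scaffold Pidd1 (-0.94, -0.04 and 0.24), the exonuclease gene Aen (-0.43, -0.07 and 0.44), the apoptosome gene Apaf1 (-0.31, 0.02 and 0.34) and the receptor gene Eda2r (-0.47, 0.19 and 0.50) each had the lowest ratio on array 1 and the highest on array 3 with the brightest probe. Another probe of Aen (0.02, 0.10 and -0.14) and 1 of the 2 other probes of Pidd1 (-0.01, -0.04 and -0.12) had their lowest ratio on array 3. A second probe of Trp53inp1 was lowest on array 1 (-1.20, -0.18 and 0.17). Phlda3, a repressor of Akt, and Tnfrsf10b, the TRAIL receptor, stayed within 0.31 of 0 on every array.

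The 9 genes of repair, nucleotide supply and redox balance had 3 mean ratios above 0 and 6 below it, with a median of -0.15 and array medians of -0.36, 0.06 and 0.14. Sesn1, a stress-induced inhibitor of growth signalling, read 5754, 1135 and 1125 in Cy3 against 13320, 1282 and 1512 in Cy5. The ratios were -1.21, -0.18 and -0.43 (mean -0.60 ± 0.54 SD, n = 3, limma adjusted p = 0.679), and -0.76 with the slide as a fixed term (limma adjusted p = 0.0382). Its 2 other kept probes had means of -0.32 and -0.30 and were above 0 on array 3. So the brightest probe alone was below 0 on all 3 arrays.

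Polk, a polymerase that copies past damaged bases, read 911, 603 and 973 in Cy3 against 1605, 650 and 722 in Cy5. Its ratio was -0.82 on array 1, -0.11 on array 2 and 0.43 on array 3. Tigar, an enzyme that diverts glucose toward antioxidant supply, read 200, 167 and 180 in Cy3 against 213, 191 and 213 in Cy5. All 3 ratios of Tigar were slightly below 0 (mean -0.18 ± 0.08 SD), and its second kept probe had the same mean of -0.18. Rrm2b, the p53-inducible subunit of ribonucleotide reductase, read 195, 131 and 99.6 in Cy3 against 240, 125 and 118 in Cy5 (mean -0.16 ± 0.20 SD).

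Dcxr, a sugar reductase, repeated the pattern of Cdkn1a, with ratios of -1.11, 0.29 and 0.37. A second kept probe of Dcxr gave -1.06, 0.32 and 0.27. The nucleotide excision repair genes differed among themselves. Ercc5 had ratios of -0.36, 0.06 and 0.64, Xpc of -0.41, 0.02 and 0.18, and Ddb2 of -0.03, 0.12 and 0.14. Fdxr, which encodes ferredoxin reductase of the mitochondria, was the only member of the group with its highest ratio on array 1 besides Tigar, at 0.23, 0.07 and -0.05.

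Of the members, 14 had more than 1 kept probe, and these probes often disagreed on signs. Of 19 other probes, 12 had the opposite sign to the brightest probe on at least 1 array, and those of Aen and Trp53 on all 3. By the rule of choice the other probes were dimmer on average, to unlike degrees. In Cy3 the other Aen probe read 239, 267 and 354, against 4634, 5777 and 8984 for the brightest. That of Ccng1 read 5653, 12727 and 14816, against 12778, 21317 and 36108. The largest gap to the brightest probe on an array had a median of 0.50 log2 units over the 19 probes, from 0.04 (Tigar) to 1.80 (Trp53), where the members' mean ratios had a median size of 0.15. Next to Trp53 the gap was widest in Pidd1 (0.93), Ccng1 (0.74) and Sesn1 (0.73 and 0.67). The mean of 5 other probes had the opposite sign, in Apaf1, Mdm4, Tnfrsf10b and Trp53. Outside Trp53 those means were between -0.03 and 0.11.

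**Figure D3:**
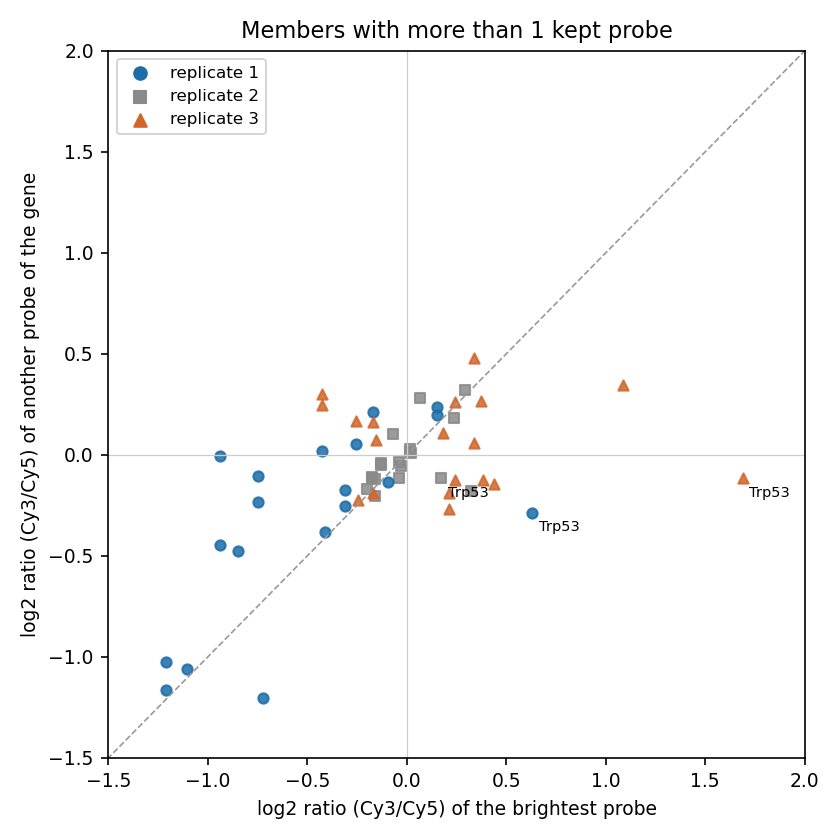
Log2 ratio of each other kept probe (vertical axis) against the brightest probe of the same gene (horizontal axis) on each array, for the 14 members with more than 1 kept probe. Many points lie off the dashed line of equal ratios, by up to 0.93 log2 units outside Trp53, whose brightest probe reached 1.69 on array 3 where the second probe was below 0.

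Other genes around the pathway were listed and read in the same way. Of 22 measured p53 target genes outside the members, 0 passed the limma test (Benjamini-Hochberg), 2 had an unadjusted p under 0.05, and 11 were above 0 with a median of -0.01. Their array medians of -0.08, -0.01 and -0.03 lay within 0.08 of 0, where the members had -0.42 on array 1, and the difference between the lists was not tested. A ratio below 0 on array 1 and above 0 on array 3 was seen in 7 of the 22, against 22.7% of all genes. Array 1 gave the lowest ratio in 11 of the 22, against 39.7% of all genes. The smallest p values belonged to the arrest gene Rprm (-1.11 ± 0.43 SD), Pcna (-0.55 ± 0.41), the sliding clamp of replication, and Trp53i11 (-0.48 ± 0.70). A second probe of Rprm also had a mean of -1.11.

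Of 18 measured damage sensors and kinases 10 were above 0, and 0 passed the limma test (1 at an unadjusted p under 0.05). The 3 with the smallest p were Hus1 (-0.42 ± 0.18 SD), Rad50 (0.50 ± 0.41) and Wrn (-0.37 ± 0.18), and other probes of Hus1 and Wrn lay between -0.06 and 0.09. Of 20 genes of G1 cyclins, their kinases, pocket proteins and other inhibitors, 12 were above 0 and 0 passed (1 at an unadjusted p under 0.05). There the smallest p belonged to the transcription factor E2f2 (-1.05 ± 0.32), Cdk4 (0.78 ± 0.76), the kinase of D-type cyclins, and E2f1 (-0.39 ± 0.27, with a second probe at 0.13). Of 21 measured controllers of p53 and of the Cdkn2a locus 13 were above 0, and 0 passed the limma test, with 0 at an unadjusted p under 0.05. The leading genes were the Polycomb gene Cbx7 (-0.73 ± 1.04, with Cy3 well above background on 1 array only), the ubiquitin ligase gene Cop1 (0.29 ± 0.27) and the acetyltransferase gene Ep300 (0.37 ± 0.67).

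Of these 6 lists of pathway genes, that of the senescence secretome and markers was the only one with a gene called by limma. It pools secreted factors with other markers such as Glb1 and Lmnb1. Mmp3, a matrix metalloproteinase, was lower in Cy3 on all 3 arrays, at -2.01, -1.92 and -1.84 (mean -1.92 ± 0.09 SD, n = 3, limma adjusted p = 0.0312 by Benjamini-Hochberg), and like every other gene it was not called without array 2 or without array 3. Of 22 measured genes of the list 13 were below 0, with a median of -0.25, and of all 18485 genes 10052 were below 0. At an unadjusted limma p under 0.05 there were 8 of the list, against 7.49% of all genes. The chemokine gene Ccl2 (-1.25 ± 0.36) and Mmp10 (-0.83 ± 0.23, with Cy3 well above background on 2 arrays) came next and did not pass. On all 3 arrays 9 of the 22 were below 0 (19.1% of all genes) and 2 above 0 (13.3%). Those above 0 were Hgf (mean 1.33 ± 1.05 SD) and Igfbp4 (1.17 ± 1.15). Macrophages also make Ccl2 and other secreted factors of this list, and the markers of macrophages and blood cells were lower in Cy3 on the same 3 arrays, with a median of -2.86. Their part in these ratios was not tested.

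Genes of mitosis and replication had ratios of opposite sign to most members on array 1, while on array 3 the signs within each list were mixed. All 19 measured were above 0 on array 1, 2 on array 2 and 6 on array 3, with array medians of 0.44, -0.22 and -0.39. Members above 0 numbered 5 of 34 on array 1 and 18 on array 3. Of all 18485 genes, 8578 and 8596 were above 0 on these 2 arrays. Array 1 gave the lowest ratio in 0 of these 19 genes and in 26 of the 34 members. Over the 3 arrays the list had 9 genes above 0, a median of -0.01, and 0 passed the limma test (0 at an unadjusted p under 0.05). Top2a (0.34 ± 0.66 SD), Kif11 (0.22 ± 0.49) and Cenpe (-0.40 ± 0.97, with other probes at -0.02 and 0.17), which act in chromosome condensation, spindle assembly and chromosome movement, had the smallest p.

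**Figure D4:**
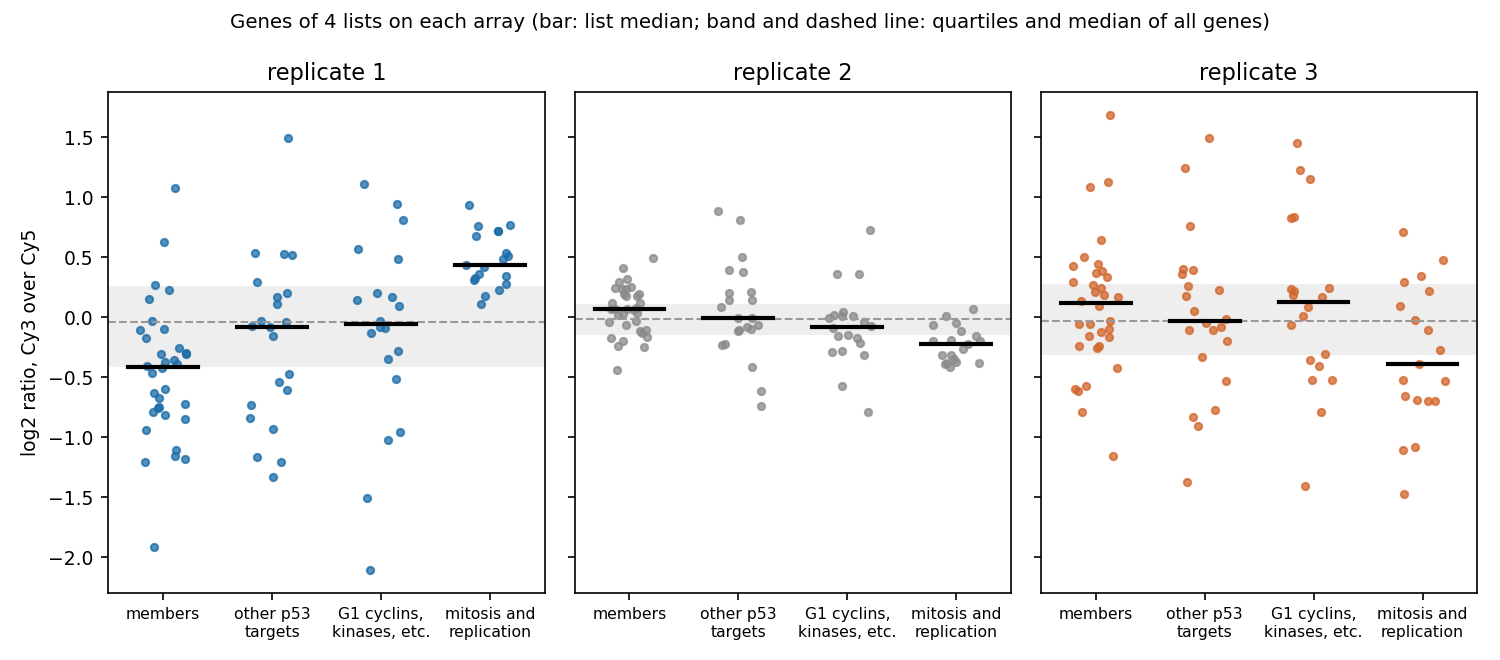
Log2 ratio of Cy3 over Cy5 (vertical axis) of the genes of 4 lists on each array, with 1 point per gene, black bars for list medians, and a grey band and dashed line for the quartiles and median of all genes. On array 1 the members lie mostly below 0 (median -0.42) and the mitosis and replication genes all above it (median 0.44), while on array 3 the order is turned (0.12 and -0.39).

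Centring moved all ratios but left the order of the arrays. With median centring in place of loess the median of all genes was -0.30 and that of the members -0.49, a difference of -0.19, and 3 of 34 members were above 0. The members minus all genes then stood at -0.59, -0.02 and 0.06 on arrays 1, 2 and 3, where loess gave -0.38, 0.08 and 0.15. With the deposited values, turned to Cy3 over Cy5, these differences were -0.41, 0.10 and 0.15. Cdkn1a was -1.97, -0.36 and 0.80 on the 3 arrays with median centring and -1.18, 0.15 and 1.07 with the deposited values. Its ratio on array 2 was thus below 0 with median centring and above 0 in the 5 other scalings tried.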

How the data were processed

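Scanner files of 3 arrays hold spot and background intensity values per dye, made by Feature Extraction 10.1.1.1 (replicate 1) and 10.7.3.1 (replicates 2 and 3), per the file headers. Per the file headers they also give a log10 ratio, Cy5 divided by Cy3 after dye normalization, and an error on the log10 scale. The deposited log2 table was made with limma, per the submitters' processing notes, with settings not given in the sources used here. It ran as Cy5 over Cy3 (correlations with the ratios computed here 0.982 to 0.997), and how it was centred is unknown.

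Median signals were corrected by normexp (offset 50) and loess in limma 3.58.1 under R 4.3.3. Control and outlier spots were left out. Probes had to be well above background in the same channel on all 3 arrays. The planned wording also allows either channel on each array. Both readings, the latter also with probes missing on an array, were run before the choice. The reading that matches an earlier processing of these files was kept, and the other was added after seeing the data. The brightest probe stood for a gene. Transcripts were named through RefSeq's GRCm38.p6 table (23374 of 41174 probes), and no protein or probe sequences were used here.

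Ratios were tested against 0 with lmFit and eBayes, adjusted by Benjamini-Hochberg over all genes at 0.05. A sign test over 3 arrays cannot go below 0.25, so each p rests on the spread limma shares between genes. Nothing in the labels says whether the cultures came from separate embryos, so p-values measure the spread between these samples. The fit was checked on simulated ratios, where 3 of 50 genes with a log2 change of size 1 were called and 28 of 50 with size 2. Changes of such size can thus go uncalled. Each gene was simulated independently with 1 SD for all 3 arrays, whereas these arrays differ in spread. The simulated call rates are therefore not those of the data. The channels of an array are paired in its ratio. SD values are over arrays.

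Members and lists were chosen with earlier results of these data known. The comparison of arrays 1 and 3 and the choice of promoter stretches followed after the values were seen. Values in both channels are given for Trp53, Mdm2, Cdkn1a, Cdkn2a, members called, and the 4 members of each role with the smallest p, and in other lists the called genes and the 3 with the smallest p are named. Letters of 2 other motifs were also searched on both strands: TATAAA lay in 13.6% of all windows and 2 of 36 member windows, and TTTGAA in 17.9% and 7 of 36.

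Alternatives were other background corrections, Feature Extraction's processed signals, median centring, the deposited values, other filters, outlier spots kept, other probe rules, unpaired channels, the slide, each replicate left out, and a threshold of 0.1. Figures were drawn with matplotlib 3.10.9.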

Additional observations from a re-analysis of the deposited data

How the results depend on the processing

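Precision is limited by 3 arrays of modest signal over background. Of the 34 members, 0 were called except with the slide as a fixed block (2). Genes called overall numbered 58 and became 118 with no background subtraction, 265 with an offset of 0, 325 with processed signals, 34 with median centring, 92 with both channels well above background, 1770 with the slide block (468 higher in Cy3, 1302 in Cy5) and 132 at a threshold of 0.1. They were 0 with no filter on dim probes and 0 without the block that pairs the channels of an array, where 1982 and 633 genes had an unadjusted limma p under 0.05. Either channel on each array, the added reading of the filter, gave 53 genes of 18748. Leaving out 1 replicate gave 0 to 284 genes (284 without replicate 1, 0 without replicate 2 or 3, where 1295 and 737 had an unadjusted limma p under 0.05). The cause was not tested.

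Stag1 kept its ratio of 3.52 with no filter (limma adjusted p = 0.0997) and without the pairing block (0.0742), and ranged over 3.40 to 3.61 with 1 replicate left out. It was 2.45 with the mean of its 4 probes and 4.21 with processed signals, and passed in both. It did not pass without replicate 2 (limma adjusted p = 0.214) or replicate 3 (0.49). With median centring the medians were -0.49 for all members and -0.52 for death members. With 1 replicate left out the median ranged over -0.16 to 0.23 for p53 and regulators, -0.20 to 0.10 for all members, -0.20 to 0.10 for arrest, -0.25 to 0.10 for death and -0.17 to 0.10 for repair members, with the positive end in each case without replicate 1.

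No member passed the test, so the sign changes below are changes of values that were not called. With processed signals Aen (0.0054), Bbc3 (0.0075), Mdm4 (0.025), Tnfrsf10b (0.13) and Xpc (0.0022) came out above 0. With deposited values this held for Tnfrsf10b (0.056) and Xpc (0.0076), and with the mean of probes for Tnfrsf10b (0.019). With median centring Apaf1 (-0.34), Bax (-0.38), Ccng1 (-0.26), Cdkn1a (-0.51), Ddb2 (-0.10), Ercc5 (-0.19) and Fdxr (-0.26) were below 0. The slide block did so for Apaf1 (-0.066), Cdkn1a (-0.26), Eda2r (-0.060) and Ercc5 (-0.00090). Leaving out 1 replicate turned 19 members, over these ranges: Aen -0.25 to 0.19, Apaf1 -0.15 to 0.18, Bbc3 -0.25 to 0.19, Btg2 -0.46 to 0.024, Ccng1 -0.0090 to 0.66, Cdkn1a -0.50 to 0.66, Cdkn2a -0.37 to 0.091, Cdkn2b -0.25 to 0.22, Dcxr -0.41 to 0.33, Ei24 -0.31 to 0.29, Eda2r -0.14 to 0.35, Ercc5 -0.15 to 0.35, Mdm2 -0.39 to 0.23, Pidd1 -0.49 to 0.10, Polk -0.46 to 0.16, Tnfrsf10b -0.15 to 0.0096, Trp53inp1 -0.49 to 0.033, Xpc -0.19 to 0.10 and Zmat3 -0.32 to 0.10. Every probe on its own gives no single value per gene.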
